A study of Mus musculus with 8 samples.

Results

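The subunits of the respiratory chain that are encoded in the nucleus were examined in the hearts of HVCN1 null mice, which lack the voltage-gated proton channel HVCN1 (Hv1), and of WT mice. Members were all protein-coding genes in the count table whose symbols begin with Nduf (other than Ndufaf), Uqcr, Cox4, Cox5, Cox6, Cox7, Cox8 or Atp5, together with Sdha to Sdhd and Cyc1. The rule found 86 of 39056 genes, with 38 in complex I, 4 in complex II, 9 in complex III, 18 in complex IV and 17 in complex V. A further 11 genes with such names were annotated as pseudogenes and were not members. The hearts came from 4 HVCN1 null male mice and 4 WT male mice on a C57BL/6 background. All were 3 months old, with 1 library of poly-A RNA from each heart. The sources used here do not say how the HVCN1 null allele was made, whether it acts in all tissues, or whether the groups were littermates. P-values therefore measure the spread between these 8 hearts. Libraries keep the numbers of their labels, which are HVCN1 null hearts 1 to 4 and WT hearts 5 to 8.

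The respiratory chain sits in the inner mitochondrial membrane. Complex I takes electrons from NADH, complex II takes them from succinate, complex III passes them to cytochrome c, and complex IV hands them to oxygen. Complexes I, III and IV pump protons out of the matrix, and complex V, the ATP synthase, lets protons back in to make ATP. A few core subunits of complexes I, III, IV and V come from mitochondrial DNA, and all others are made from nuclear genes and imported. Heart muscle is packed with mitochondria, and the mRNAs of these subunits are among the more abundant transcripts of cardiomyocytes. Several complex IV subunits exist as a heart and muscle isoform and an isoform found in most tissues.

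Total counts ran from 25851255 to 38874640 per heart, and genes of the mitochondrial genome took 23.7% to 30.2% of them. The 86 members took 3.58% to 4.999% of the counts. Hvcn1 itself was nearly absent from the HVCN1 null libraries (16 counts in all 4, against 318 in the WT libraries), at a log2 fold change of -4.20 ± 0.38 (SE). Cardiomyocyte markers were high in every heart, with summed levels of 53261 to 65200 CPM (counts relative to library size, with TMM scaling of the libraries) over 8 genes. Atrial markers differed between hearts within both groups, with summed levels of 3321 to 8588 CPM over 8 genes in HVCN1 null hearts 2 and 3 and WT hearts 5 and 7, and of 130 to 368 CPM in the other hearts. In whole-heart RNA, fewer cells of a type and less RNA per cell cannot be told apart.

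No subunit of any complex was called different between HVCN1 null and WT hearts. Of the 86 members, 84 had enough counts to be tested, and 0 passed an adjusted p of 0.05 (edgeR's quasi-likelihood test with Benjamini-Hochberg adjustment over all 14796 tested genes), where 1.14% of all tested genes did. At an unadjusted p under 0.05 the count was again 0 of 84, against 11% of all tested genes and 6.82% of the 1071 tested genes with a mean of at least 114 CPM, the level that 90% of the tested subunits reach. Groups of 4 hearts that did not overlap in CPM were seen for 0 of the 84 subunits and for 7.06% of all tested genes. DESeq2, edgeR's exact test, edgeR's likelihood ratio test and limma's voom also called 0 subunits, where they called 3.15%, 2.48%, 2.54% and 0.994% of all tested genes, and 0 subunits had an unadjusted p under 0.05 by any of these. The smallest p was that of Ndufa3 (edgeR adjusted p = 0.780).

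The log2 fold changes, HVCN1 null over WT, ran from -0.07 to 0.22 with a median of 0.05, beside a median of -0.01 over all tested genes. A positive value was seen for 72 subunits and a negative one for 12, where 47.3% of all tested genes were above 0. By complex the medians were 0.05 for complex I, 0.04 for complex II, 0.03 for complex III, 0.09 for complex IV and 0.05 for complex V. All 16 tested subunits of complex IV, 16 of 17 of complex V, 31 of 38 of complex I, 6 of 9 of complex III and 3 of 4 of complex II had a positive value. The members moved together from heart to heart, so these signs are not separate observations, and single hearts decided them. Without HVCN1 null heart 4 only 26 of 84 values were positive (median -0.03), and without WT heart 7 only 30 of 85 (median -0.04). Without HVCN1 null heart 3 the count was 46 of 84 (median 0.01), and without HVCN1 null heart 1 it was 83 of 84 (median 0.13).

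A p that misses the threshold does not show that the groups were alike, and the intervals give the sizes that these hearts allow. The median standard error of a subunit's log2 fold change was 0.15. For 78 of 84 subunits the 95% interval lay between -0.5 and 0.5 on the log2 scale. The lowest bound belonged to Atp5e, at 0.728 times the WT level, and the highest to the scarce Cox6b2, at 1.77 times the WT level. The standard deviation of log2 CPM over the 8 hearts had a median of 0.228 for the subunits and of 0.180 for the tested genes of at least 114 CPM.

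**Figure D1:**
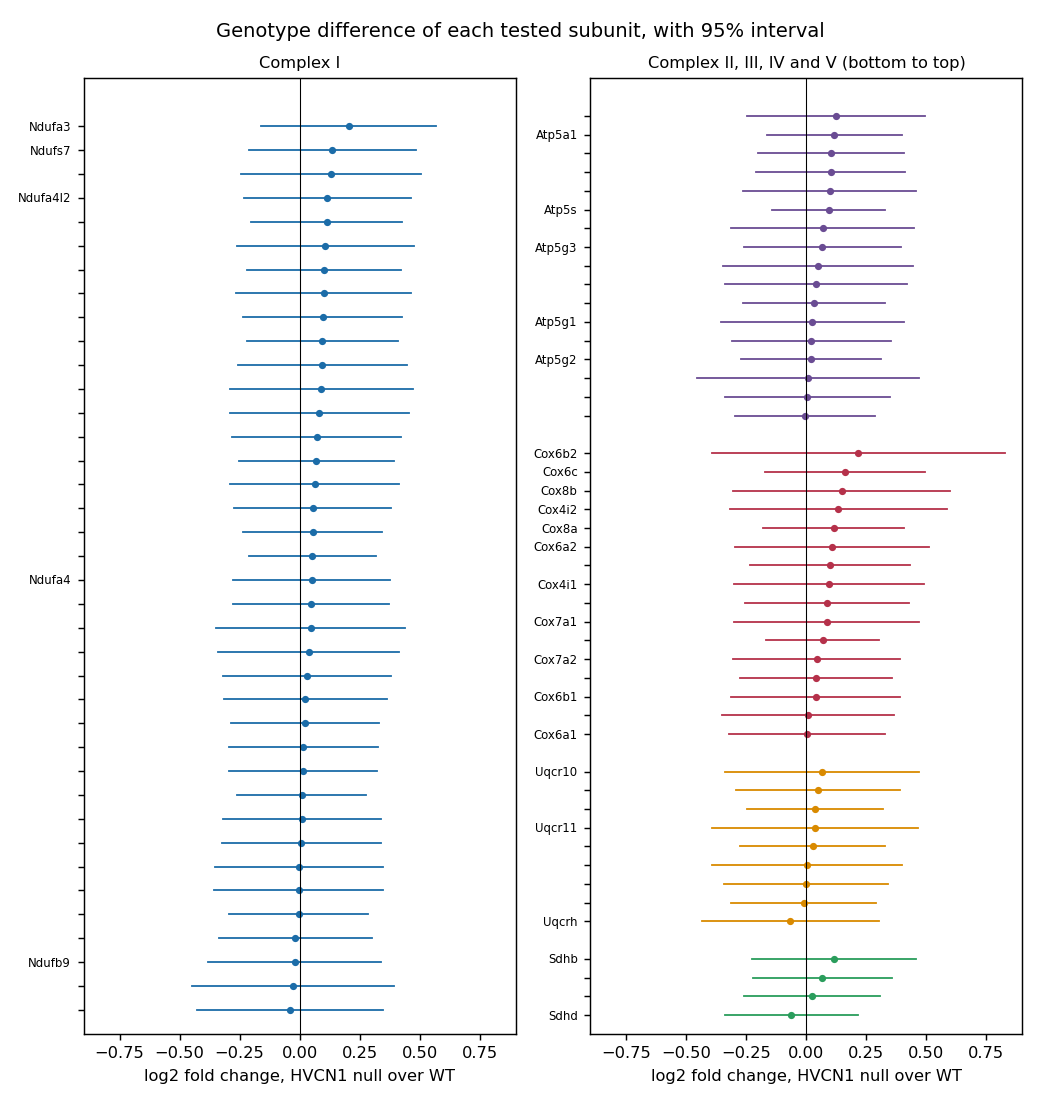
Log2 fold change of each of the 84 tested subunits (x axis, HVCN1 null over WT; points, with lines for 95% intervals from edgeR's quasi-likelihood fit), grouped by complex and labelled for the subunits named one by one. Every interval crosses 0, and most points of complexes IV and V sit slightly to the right of 0.

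In complex I, the catalytic core that carries flavin and iron-sulphur clusters and the accessory subunits around it gave like values. The 7 nuclear core subunits, among them Ndufs1 and Ndufv1, had a median log2 fold change of 0.07, with 6 of 7 positive. The 31 accessory subunits had one of 0.05, with 25 of 31 positive. They were all the other Nduf symbols of the rule, including Ndufa4, known as a part of complex IV, and its paralogue Ndufa4l2. Ndufa3, a small accessory subunit, measured 177, 174, 242 and 242 CPM in HVCN1 null hearts 1 to 4 and 200, 189, 134 and 202 CPM in WT hearts 5 to 8. HVCN1 null hearts 3 and 4 were the highest and WT heart 7 the lowest, and the groups overlapped. Its log2 fold change was 0.20 ± 0.16 (SE; edgeR adjusted p = 0.780). Ndufs7, which holds the last iron-sulphur cluster before ubiquinone, measured 313, 339, 458 and 426 CPM in HVCN1 null hearts and 393, 380, 272 and 355 CPM in WT hearts. The same hearts were high and low, and its log2 fold change was 0.14 ± 0.16 (SE; edgeR adjusted p = 0.868). Ndufb9, an accessory subunit of the membrane arm, measured 455, 494, 619 and 629 CPM in HVCN1 null hearts and 685, 561, 423 and 561 CPM in WT hearts, with the highest and the lowest value both in WT hearts and a log2 fold change of -0.02 ± 0.16 (SE).

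Complex II is succinate dehydrogenase, which also works in the citric acid cycle and has no subunit from mitochondrial DNA. Sdhb, its iron-sulphur subunit, measured 511, 560, 671 and 748 CPM in HVCN1 null hearts and 597, 614, 447 and 643 CPM in WT hearts (log2 fold change 0.12 ± 0.15, SE; edgeR adjusted p = 0.892). HVCN1 null heart 4 was the highest and WT heart 7 the lowest, with the other hearts overlapping. Sdhd, a membrane anchor, measured 284, 317, 347 and 368 CPM in HVCN1 null hearts and 358, 371, 280 and 366 CPM in WT hearts. WT heart 7 stood apart from the other WT hearts, and the log2 fold change was -0.06 ± 0.12 (SE; edgeR adjusted p = 0.935). Per kilobase of the principal transcript, Sdhb was the most abundant of the 4 in WT hearts (504 ± 76.5 CPM per kilobase; SD, n = 4), followed by Sdha, the flavin subunit, at 367 ± 49.6, Sdhd at 279 ± 34.7 and Sdhc, the other anchor, at 118 ± 13.01. Per kilobase of all annotated exons the order was another, with Sdhd first at 279 ± 34.7, followed by Sdha at 258 ± 34.8 and Sdhb at 257 ± 39.01 CPM per kilobase (SD, n = 4), which differ by less than their spread.

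In complex III, the catalytic and core subunits (Cyc1, Uqcrfs1, Uqcrc1 and Uqcrc2) had 2 positive and 2 negative log2 fold changes, with a median of 0.02. Uqcrh, the hinge protein at the docking site of cytochrome c, measured 451, 503, 611 and 595 CPM in HVCN1 null hearts and 750, 528, 448 and 537 CPM in WT hearts. Both extremes lay within the WT group, and its log2 fold change of -0.07 ± 0.17 (SE; edgeR adjusted p = 0.9499) was the lowest of the 84. Uqcr10, a small subunit of the complex, measured 256, 271, 339 and 333 CPM in HVCN1 null hearts and 395, 259, 213 and 280 CPM in WT hearts, again with both extremes among the WT hearts (log2 fold change 0.07 ± 0.18, SE). Uqcr11, another small subunit, measured 303, 357, 458 and 523 CPM in HVCN1 null hearts and 490, 410, 295 and 404 CPM in WT hearts. Here HVCN1 null heart 4 was the highest, WT heart 7 the lowest and HVCN1 null heart 1 close to it.

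Per kilobase, complex IV held the most abundant mRNA of the 86. Cox6a2, the heart and muscle form of subunit 6a, reached 2455 ± 542 CPM per kilobase in HVCN1 null hearts, beside 2280 ± 379.6 in the WT group (SD, n = 4 each). It measured 1221, 1514, 1947 and 1995 CPM in HVCN1 null hearts and 1795, 1576, 1188 and 1643 CPM in WT hearts, with HVCN1 null hearts 3 and 4 high and HVCN1 null heart 1 and WT heart 7 low (log2 fold change 0.11 ± 0.18, SE). Cox6c, which has no muscle isoform, had the smallest p of the complex. It measured 496, 550, 667 and 709 CPM in HVCN1 null hearts and 651, 525, 446 and 542 CPM in WT hearts, and the groups overlapped (log2 fold change 0.16 ± 0.15, SE; edgeR adjusted p = 0.821). Cox4i1, the main form of the subunit at which ATP acts on the enzyme, measured 1079, 1157, 1528 and 1617 CPM in HVCN1 null hearts and 1539, 1258, 947 and 1302 CPM in WT hearts. HVCN1 null heart 4 was the highest and WT heart 7 the lowest, and the log2 fold change was 0.09 ± 0.18 (SE).

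In complex V, the 5 subunits of the F1 head (Atp5a1, Atp5b, Atp5c1, Atp5d and Atp5e), which holds the catalytic sites and the turning stalk, had a median log2 fold change of 0.10, with 5 of 5 positive. The other 12 members had a median of 0.04, with 11 of 12 positive. Atp5a1, the alpha subunit, measured 3175, 3372, 3703 and 4119 CPM in HVCN1 null hearts and 3124, 3491, 2933 and 3706 CPM in WT hearts. HVCN1 null heart 4 was the highest and WT heart 7 the lowest, but WT heart 5, high for most subunits, was the second lowest (log2 fold change 0.12 ± 0.13, SE; edgeR adjusted p = 0.857). Atp5b, the catalytic beta subunit, was the most abundant of complex V per kilobase of the principal transcript, at 2204 ± 359 CPM per kilobase in HVCN1 null hearts, beside 2052 ± 163 in the WT group (SD, n = 4 each). Per kilobase of all annotated exons, Atp5a1 came before Atp5b (1057 and 928 CPM per kilobase in WT hearts). At the other end, Atp5s, the coupling factor B that is not part of the rotary core, measured 14.9, 13.6, 14.9 and 15.5 CPM in HVCN1 null hearts and 14.1, 15.02, 11.4 and 14.7 CPM in WT hearts. Only WT heart 7 was low for it, and the log2 fold change was 0.09 ± 0.11 (SE).

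The spread between hearts, within both genotypes, was shared by all 5 complexes. Taking each gene's log2 CPM (prior count 2) minus its mean over the 8 hearts, the median over the 84 subunits stood at -0.24, -0.09, 0.19 and 0.26 for HVCN1 null hearts 1 to 4, beside 0.17, 0.04, -0.34 and 0.04 for WT hearts 5 to 8. The highest and the lowest heart differed 1.51-fold, while the group means were 0.03 ± 0.23 for HVCN1 null and -0.02 ± 0.22 for WT (SD, n = 4 each). WT heart 7 gave the lowest value of the 8 for 69 of the 84 subunits and HVCN1 null heart 1 for 13. HVCN1 null heart 4 gave the highest for 50, WT heart 5 for 21 and HVCN1 null heart 3 for 10. In HVCN1 null heart 3, 81 of the 84 subunits lay above their own mean, and in WT heart 7 only 1 did.

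**Figure D2:**
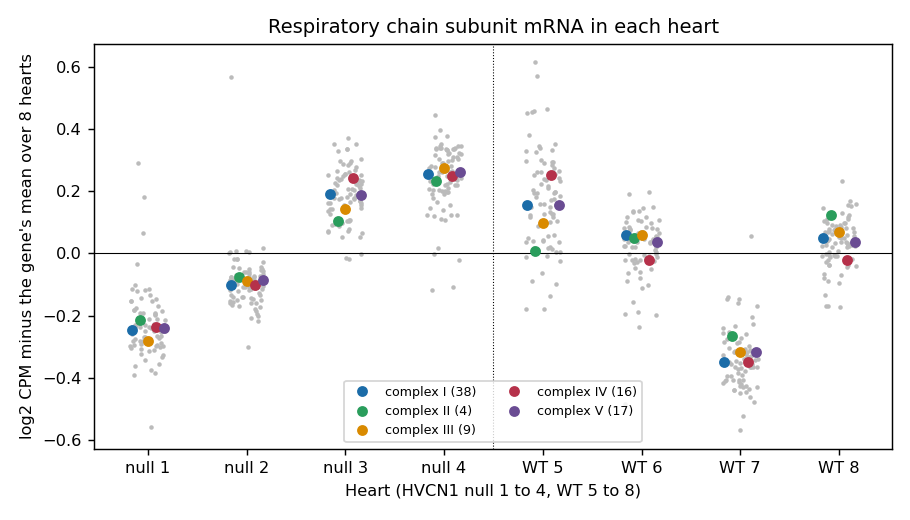
Log2 CPM minus the gene's mean over 8 hearts (y axis) in each heart (x axis), with grey points for the 84 tested subunits and coloured points for the median of each complex (number of genes in brackets). All 5 complex medians are below 0 in HVCN1 null hearts 1 and 2 and WT heart 7 and above 0 in HVCN1 null hearts 3 and 4 and WT heart 5, and they lie widest apart in WT heart 5, from 0.0075 (complex II) to 0.25 (complex IV).

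The complexes kept nearly constant proportions while their sum moved. Summed CPM over the 86 members was 35499, 39592, 46734 and 50581 in HVCN1 null hearts and 45184, 42872, 33465 and 43453 in WT hearts. Complex I took 25.6% to 26.5% of this sum over the 8 hearts, complex II 5.04% to 6.14%, complex III 11.7% to 12.4%, complex IV 17.96% to 20.3% and complex V 35.9% to 38.4%. The widest relative range was that of complex II, whose lowest share was in WT heart 5, and the highest share of complex IV was in the same heart. The share of complex III was 11.80%, 11.88%, 11.66% and 11.92% in HVCN1 null hearts and 12.28%, 12.37%, 11.94% and 12.24% in WT hearts. For this complex alone the groups did not overlap, by a narrow margin. That was seen after the values were known, and the shares were not tested.

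Pairs of subunits had a median Pearson correlation of 0.89 over the 8 hearts, and 99.3% of the 3486 pairs were positive, beside a median of -0.0033 over pairs of all tested genes. The first principal component of the 84 subunits held 82.2% of their variance and the second 9.50%. These are descriptions over 8 libraries whose CPM share library size and scaling. Against the median of the other subunits, 60 of 84 had a correlation above 0.9 (71.4%), as did 332 of the 14712 other tested genes (2.26%). The highest value was that of Ndufa5, an accessory subunit of complex I, at 0.99. Among the 84 the lowest values were those of Cox6b2 (0.24), Ndufa4l2 (0.38), Cox4i2 (0.42), Sdha (0.49) and Ndufs1 (0.53), which are 3 scarce isoforms and a pair of long transcripts.

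Outside the members, among genes of at least 1 CPM, the heart-to-heart pattern most like the subunits' median was that of Nop9 (r = 0.995). Next came 1810058I24Rik (r = 0.99), a lincRNA by the annotation used here, and Pdcd5 (r = 0.99). Then followed Cox14 (r = 0.99), an assembly factor of complex IV, Timm13 (r = 0.99), a carrier of the mitochondrial import system, and Htra2 (r = 0.99), a mitochondrial protease. Mcrip2, Psmc3 and Hras (r = 0.98 each) stood above Chchd2 (r = 0.98), a mitochondrial protein with a twin cysteine motif. These were named after their values over the 8 hearts were seen.

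Markers of ventricular muscle shared the low WT heart 7, and otherwise their order of hearts depended on the measure. The summed CPM of Myl2, Myl3, Irx4 and Hey2 reached 8679, 10171, 11486 and 12961 for HVCN1 null hearts 1 to 4, beside 13403, 12700, 7258 and 12456 for WT hearts 5 to 8, with WT heart 7 and HVCN1 null heart 1 the lowest and WT heart 5 the highest. The median deviation over these 4 genes was -0.08, -0.10, 0.07 and 0.26 in HVCN1 null hearts and 0.05, 0.06, -0.54 and 0.19 in WT hearts, with HVCN1 null heart 4 the highest and WT heart 8 next. None of the 4 ventricular and 7 tested atrial markers was called between the groups, where 1.14% of all tested genes were. Atrial markers were highest in WT heart 7 (8588 CPM), followed by HVCN1 null heart 2 (4687 CPM), HVCN1 null heart 3 (3750 CPM) and WT heart 5 (3321 CPM). In that order of hearts, the median deviation of the subunits was -0.34, -0.09, 0.19 and 0.17. With the atrial score as a covariate in the edgeR fit, 0 subunits were called (1.43% of all tested genes) and the median log2 fold change was 0.08. The part of either marker list in the subunits' pattern was not tested.

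**Figure D3:**
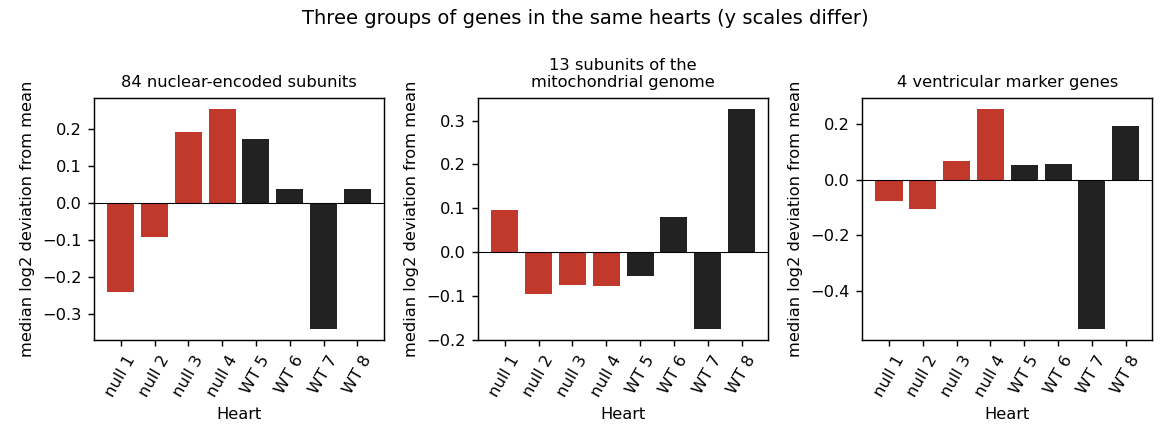
Median log2 deviation from the gene mean (y axis, scales differ between panels) in each heart (x axis; red, HVCN1 null; black, WT) for the 84 nuclear-encoded subunits, the 13 subunits of the mitochondrial genome and 4 ventricular marker genes. WT heart 7 is the lowest bar in each panel, while WT heart 8 is the highest for the mitochondrial genome only.

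The 13 subunits made from mitochondrial DNA had another order of hearts than the nuclear ones, apart from WT heart 7, the lowest of both by median deviation. Their median deviation was 0.10, -0.09, -0.08 and -0.08 in HVCN1 null hearts and -0.05, 0.08, -0.18 and 0.33 in WT hearts. WT heart 8, near the middle for the nuclear subunits, was the highest, and HVCN1 null hearts 3 and 4, high for the nuclear subunits, were below 0. The place of WT heart 7 depended on the measure. By summed CPM of the 13 genes, HVCN1 null heart 3 was the lowest (232820 CPM) and WT heart 7 next (238540 CPM). Of unscaled counts, genes of the mitochondrial genome took 25.5% in WT heart 7 and 23.7% in HVCN1 null heart 3. Of the 13 genes 0 were called, beside 1.14% of all tested genes. A negative log2 fold change was seen for 11, where 47.3% of all tested genes were above 0, and the median was -0.08. These signs need not be separate observations, and they were not tested as a set. The smallest p values of this list belonged to mt-Nd5, of complex I (log2 fold change -0.33 ± 0.19, SE; edgeR adjusted p = 0.616), and mt-Atp8, of complex V (-0.42 ± 0.27, SE; edgeR adjusted p = 0.668).

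Another pattern set long subunit transcripts apart from short ones in some hearts, and is shown here for 1 pair of WT hearts. This pair was not chosen by a rule set beforehand. Between WT hearts 5 and 8 the median log2 difference was 0.22 for the 40 subunits with a principal transcript under 800 bases, 0.10 for the 24 of 800 to 1500 bases and -0.09 for the 20 of 1500 bases or more. Across the 84 subunits the difference had a Pearson correlation of -0.64 and a Spearman correlation of -0.66 with log2 length, as a description of these 2 libraries across genes. The extremes were Atp5e (421 bases, difference 0.70), the epsilon subunit of the F1 stalk, and Sdha (2900 bases, difference -0.41). The same order was seen over all tested protein-coding genes. The difference was 0.30 for 398 genes under 800 bases, 0.18 for 1633 genes of 800 to 1500 and -0.04 for 11596 longer genes. From the shortest to the longest class of subunits, the median deviation was 0.24, 0.13 and 0.01 in WT heart 5. It was 0.02, 0.03 and 0.10 in WT heart 8. In HVCN1 null heart 4 the classes were alike, at 0.25, 0.25 and 0.26.

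**Figure D4:**
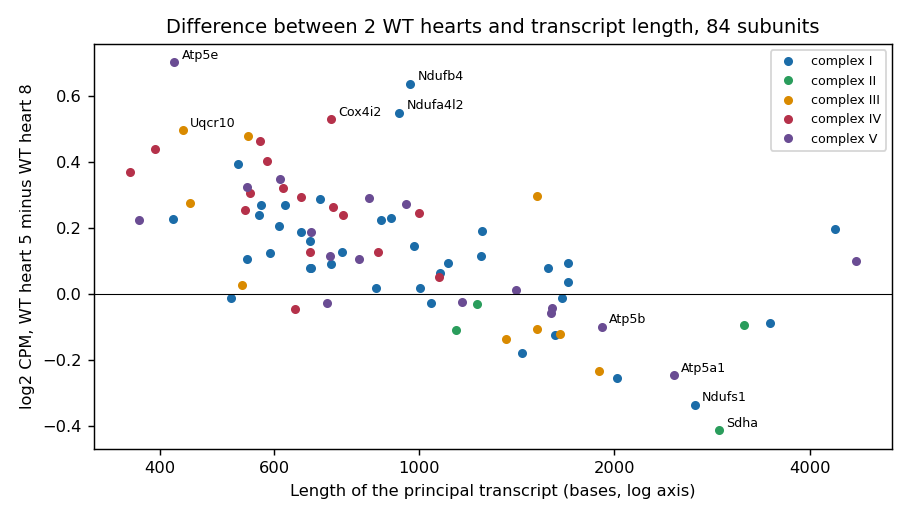
Log2 CPM in WT heart 5 minus WT heart 8 (y axis) against the length of the principal transcript in bases (x axis, log scale) for the 84 tested subunits, coloured by complex. Short transcripts such as Atp5e sit up to 0.70 above 0, and long ones such as Sdha down to -0.41.

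Short transcripts as a whole shared part of the subunits' pattern, and subunits of 1500 bases or more showed it too. Over all tested protein-coding genes under 800 bases the median deviation was -0.21 in HVCN1 null heart 1, 0.19 in HVCN1 null heart 3 and -0.23 in WT heart 7. Among subunits of 1500 bases or more it was -0.19, 0.11 and -0.31 in the same hearts. Among all tested protein-coding genes of that length it was 0.03, -0.03 and 0.03. These 11596 genes are most of those tested, so scaling and centring alone keep their median deviation small in every heart. A correlation above 0.9 with the subunits' median was found for 31 of 40 subunits under 800 bases (77.5%) and 40 of 358 other genes of that length (11.2%). For 800 to 1500 bases the counts were 18 of 24 (75.0%) and 152 of 1609 (9.45%), and for 1500 bases or more 11 of 20 (55.0%) and 123 of 11576 (1.06%). Restricting the other genes to those of at least 114 CPM gave 15.2%, 16.9% and 2.23%. The part of transcript length in the subunits' pattern was not tested.

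No isoform ratio differed between the groups beyond the spread between hearts. Differences in mean log2 ratio, HVCN1 null minus WT, ran from -0.13 to 0.10. Within each heart the ratio of a pair of isoforms does not depend on library scaling, and the 8 ratios compared gave exact permutation p values of 0.343 to 0.8286 (two-sided, 70 assignments, n = 4 and 4; all 0.8286 after Benjamini-Hochberg adjustment over the 8). The heart and muscle forms prevailed in every heart. On the log2 scale of CPM, Cox6a2 over Cox6a1 measured 4.21, 4.40, 4.30 and 4.68 in HVCN1 null hearts and 4.24, 4.32, 4.08 and 4.57 in WT hearts. The groups overlapped, and the WT mean corresponds to a 19.7-fold excess of counts and a 16.6-fold excess per kilobase. Cox7a1 over Cox7a2, the heart and the liver form of subunit 7a, measured 1.31, 1.19, 1.17 and 1.30 in HVCN1 null hearts and 1.28, 1.22, 1.12 and 1.13 in WT hearts. That ratio moved little between hearts, with an SD of 0.07 in HVCN1 null hearts and 0.08 in WT hearts, although both mRNAs differed widely between them. Cox8b over Cox8a measured 1.93, 1.76, 1.85 and 2.25 in HVCN1 null hearts and 2.08, 1.91, 1.59 and 2.02 in WT hearts, with HVCN1 null heart 4 highest and WT heart 7 lowest.

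The alternative forms Cox4i2, Ndufa4l2 and Cox6b2 were scarce in all hearts, whereas Cox7a2 made up a larger part of its pair, of which Cox7a1 took 69.5% in WT hearts. Cox4i2, the form of subunit 4 known from lung and from low oxygen, measured 12.5, 8.80, 13.1 and 9.44 CPM in HVCN1 null hearts and 14.0, 8.68, 7.49 and 9.69 CPM in WT hearts. WT heart 5 was the highest and WT heart 7 the lowest, and Cox4i1 stood 127-fold above it in WT hearts by CPM. Ndufa4l2, a paralogue of Ndufa4 that rises with low oxygen, measured 24.3, 19.9, 26.4 and 19.9 CPM in HVCN1 null hearts and 28.0, 18.8, 17.6 and 19.1 CPM in WT hearts, with hearts 1, 3 and 5 high as for Cox4i2. Both therefore ran in another order than the bulk of the subunits, with HVCN1 null heart 1 high and HVCN1 null heart 4 not. Summed over 7 smooth muscle and pericyte markers, CPM was 1501, 1002, 1160 and 883 in HVCN1 null hearts. It was 1030, 1065, 870 and 980 in WT hearts. The part of the mix of cells in the order of Cox4i2 and Ndufa4l2 was not tested. Ndufa4 itself, named for complex I and known as a part of complex IV, stood 29.6-fold above Ndufa4l2 in WT hearts. Cox6b2, the testis form of subunit 6b, measured 1.17, 2.62, 2.28 and 1.72 CPM in HVCN1 null hearts and 2.08, 1.24, 1.83 and 1.55 CPM in WT hearts. Cox6b1 exceeded it 328-fold in WT hearts.

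**Figure D5:**
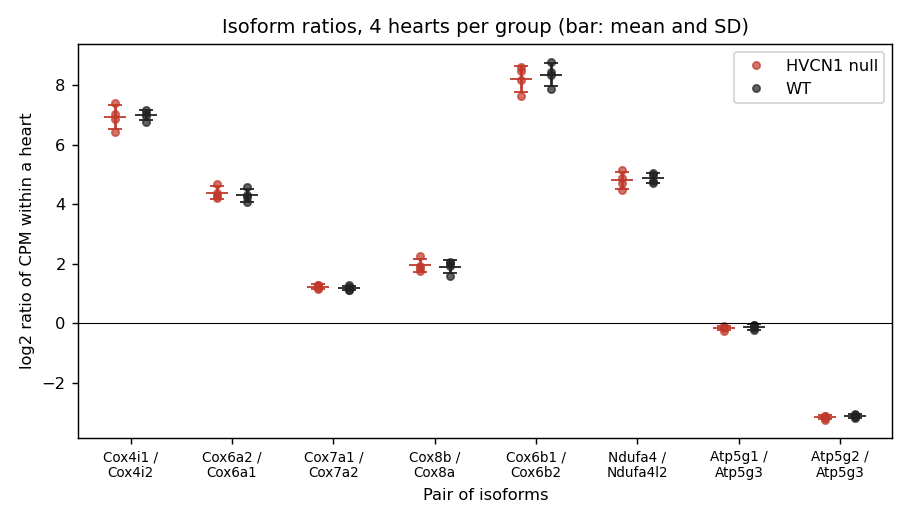
Log2 ratio of CPM within each heart (y axis) for 8 pairs of isoforms (x axis), with points for single hearts and bars for the mean and SD of 4 HVCN1 null (red) and 4 WT (black) hearts. The groups overlap for every pair, and the heart and muscle forms Cox6a2, Cox7a1 and Cox8b lie above 0 in all 8 hearts.

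Subunit c, the proton-carrying ring of complex V, is made from 3 genes that encode the same mature protein. Atp5g1 took 42.8% to 46.5% of their summed CPM over the 8 hearts, Atp5g2 5.30% to 6.01% and Atp5g3 47.7% to 51.4%. By CPM, Atp5g3 measured 927, 995, 1230 and 1335 in HVCN1 null hearts and 1131, 1129, 874 and 1153 in WT hearts, with WT heart 7 apart from the other WT hearts. The log2 fold changes of Atp5g1, Atp5g2 and Atp5g3 were 0.02 ± 0.17, 0.02 ± 0.13 and 0.07 ± 0.15 (SE).

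The low-count filter did not keep Cox7b2 and Cox8c, isoforms of complex IV subunits known from testis. Cox8c had 0 counts in every heart, and a count of 0 allows up to 0.0759 to 0.114 CPM (3 counts) per heart. Cox7b2 (chromosome 5, 71442824 to 71548205 in GRCm38) had 11, 9, 8 and 17 counts in HVCN1 null hearts and 2, 4, 0 and 5 in WT hearts. Its 4 HVCN1 null hearts, at 0.241 to 0.480 CPM, all lay above its 4 WT hearts, which reached at most 0.169 CPM. The summed counts of 45 and 11 gave a ratio of 4.30 after scaling (95% exact interval 2.19 to 9.23, counting error only). The difference in mean CPM had an exact permutation p of 0.0286 (two-sided, n = 4 and 4), the smallest that 70 assignments allow, and of 0.0571 without WT heart 7. It was the only one of the 28 subunits named by rule with an exact p under 0.05, without adjustment for that number, and groups that do not overlap, which such a p requires, were seen for 7.06% of all tested genes. In the fit without a filter on low counts its log2 fold change was 2.02 ± 0.66 (SE; edgeR adjusted p = 0.267).

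Promoter sequences were looked at because the members moved together. Mitochondrial gene promoters are known for sites of ETS factors such as GABPA, of NRF1, of ERR receptors and of YY1. RefSeq windows from 250 bases before to 50 bases after the start (build GRCm38.p6) were at hand for 67 of the 86 members and 27025 genes, and were searched on both strands for exact letters. The ETS letters CCGGAAG were found in 23.9% of subunit windows, 9.93% of all windows and 18.7% of windows of 11050 tested genes. The NRF1 letters GCATGCG were found in 16.4%, 4.02% and 6.84%, the ERR letters AAGGTCA in 11.9%, 5.38% and 3.95%, the YY1 letters AAGATGG in 14.9%, 7.28% and 8.02%, and the TATA letters TATAAA in 10.4%, 15.7% and 9.25%. In the 250 bases before the start alone, the YY1 letters were found in 1 of 67 subunit windows (1.49%), beside 5.18% of all windows and 5.005% of those of tested genes. The NRF1 letters contain part of their own complement, so a match on both strands can be 1 place. These matches are letters only, not sites.

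The 250 bases before the start are given for 5 subunits, with matches of any of these motifs in capitals. Cox6a1 and Atp5l are shown because they hold both ETS and NRF1 letters there, as only Atp5j does besides, and stand beside the heart and muscle forms Cox7a1 and Cox8b and the scarce Cox7b2. All 5 were chosen after the matches were seen, so their contrast describes these windows only. Cox6a1 and Atp5l, a membrane subunit of complex V, hold ETS and NRF1 letters, at 16 and 160 bases before the start in Cox6a1 and at 212 and 240 bases in Atp5l. Atp5l also holds the TATA letters at 122 bases and the ERR letters at 13 bases. Cox7a1 and Cox8b hold none of the 5 motifs in these 250 bases, and Cox7b2 holds the TATA letters at 221 bases. The regions, in the order printed, are chr5:115348959-115349208 (minus strand), chr9:44920743-44920992 (minus strand), chr7:30183921-30184170 (plus strand), chr7:140900447-140900696 (minus strand) and chr5:71548206-71548455 (minus strand). All are written 5′ to 3′ along the gene's strand.
Cox6a1: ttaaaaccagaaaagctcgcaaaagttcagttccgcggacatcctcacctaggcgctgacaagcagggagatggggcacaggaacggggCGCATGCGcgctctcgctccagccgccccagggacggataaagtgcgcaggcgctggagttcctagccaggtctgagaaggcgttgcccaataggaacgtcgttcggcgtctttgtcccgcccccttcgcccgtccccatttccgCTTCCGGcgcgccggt
Atp5l: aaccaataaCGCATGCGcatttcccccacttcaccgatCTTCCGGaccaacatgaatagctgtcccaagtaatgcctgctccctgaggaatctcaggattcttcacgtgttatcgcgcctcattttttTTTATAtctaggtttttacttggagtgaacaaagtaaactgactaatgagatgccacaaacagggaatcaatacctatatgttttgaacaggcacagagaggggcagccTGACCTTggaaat
Cox7a1: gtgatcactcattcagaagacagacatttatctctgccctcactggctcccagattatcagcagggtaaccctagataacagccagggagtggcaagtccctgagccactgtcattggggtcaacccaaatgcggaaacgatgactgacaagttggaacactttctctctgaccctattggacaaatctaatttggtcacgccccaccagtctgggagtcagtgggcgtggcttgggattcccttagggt
Cox8b: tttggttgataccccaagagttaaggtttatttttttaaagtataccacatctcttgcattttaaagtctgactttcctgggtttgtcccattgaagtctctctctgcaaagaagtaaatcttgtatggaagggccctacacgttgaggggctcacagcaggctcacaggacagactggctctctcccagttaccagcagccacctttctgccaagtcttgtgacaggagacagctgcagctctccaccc
Cox7b2: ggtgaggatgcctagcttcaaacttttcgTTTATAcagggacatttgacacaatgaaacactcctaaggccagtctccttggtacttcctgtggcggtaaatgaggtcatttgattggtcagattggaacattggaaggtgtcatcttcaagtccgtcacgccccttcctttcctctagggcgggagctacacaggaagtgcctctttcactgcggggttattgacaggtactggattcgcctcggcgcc

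Counts of several subunits are uncertain because the genome holds near-identical copies of them. By BLAST of annotated transcripts, 24 of the 86 members had 46 copies in the count table with at least 95% identity over at least 80% of the copy. Of these copies 27 were tested and 0 were called, beside 1.14% of all tested genes. A positive log2 fold change was seen for 18, and each of the 27 had between 0.0501% and 3.503% of the CPM of its subunit. Groups that do not overlap were seen for 7.06% of all tested genes, and among the 27 tested copies only for Gm6969. This processed pseudogene on chromosome 12 is a copy of Cox7a2l. Gm6969 measured 0.691, 0.107, 0.722 and 0.198 CPM in HVCN1 null hearts and 0.734, 1.33, 1.11 and 1.18 CPM in WT hearts (53 and 149 counts in all). Its log2 fold change was -1.37 ± 0.51 (SE; edgeR adjusted p = 0.326). The copy with the most counts was Gm11273 on chromosome 13 (21501029 to 21501418), annotated as protein coding and 99.2% identical to Cox5b. It measured 20.7, 27.8, 31.5 and 37.0 CPM in HVCN1 null hearts and 22.0, 19.1, 11.9 and 18.8 CPM in WT hearts. HVCN1 null hearts 2 to 4 lay above every WT heart, and HVCN1 null heart 1 overlapped them. Its log2 fold change was 0.71 ± 0.21 (SE; edgeR adjusted p = 0.181), from 0.56 to 0.84 over 19 other fits with adjusted p values from 0.026 to 0.362, and it was called by edgeR's exact and likelihood ratio tests and by DESeq2. Both copies were singled out after their values were seen, and how reads that match a subunit and its copy were assigned is not given in the sources used here. Cox5b itself had a log2 fold change of 0.0055 ± 0.16 (SE), at 814 ± 148 CPM per kilobase in HVCN1 null hearts and 811 ± 130 in WT hearts (SD, n = 4 each).

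Genes that serve the chain without being subunits gave no call in the same fit, where 1.14% of all tested genes were called. At that share, lists this short hold few calls or none. Of 52 assembly factors 50 were tested and 0 were called, with 14 positive and 36 negative log2 fold changes and a median of -0.07. Of all tested genes 47.3% were above 0. Here too the signs need not be separate observations, and they were not tested as a set. An unadjusted p under 0.05 in edgeR's quasi-likelihood test was seen for 6 of the 50, beside 11% of all tested genes. The smallest p values were those of Tmem126b, which acts in the assembly of the membrane arm of complex I (log2 fold change -0.27 ± 0.09, SE; edgeR adjusted p = 0.233), and Cox15, which makes heme A for complex IV (-0.30 ± 0.10, SE; edgeR adjusted p = 0.257). Tmem126b measured 22.0 to 24.7 CPM in HVCN1 null hearts and 24.9 to 30.7 CPM in WT hearts, so that the groups just did not overlap. Neither did those of Ndufaf4, another assembly factor, at 40.1 to 41.9 CPM in HVCN1 null and 43.1 to 56.5 CPM in WT hearts. Groups that do not overlap were seen for 7.06% of all tested genes. Of 20 regulators of respiratory genes 0 passed the quasi-likelihood test, with 10 positive and 10 negative values. Pprc1, a coactivator related to PGC-1alpha, measured 22.0 to 31.0 CPM in HVCN1 null hearts and 19.0 to 21.4 CPM in WT hearts, again without overlap. Its log2 fold change was 0.38 ± 0.11 (SE; edgeR adjusted p = 0.163), and it was called by DESeq2 alone. Polrmt, the mitochondrial RNA polymerase, had a log2 fold change of 0.21 ± 0.10 (SE; edgeR adjusted p = 0.447). Cycs, which encodes cytochrome c, had one of -0.03 ± 0.12 (SE), and Atpif1, the inhibitor of complex V, one of 0.28 ± 0.12 (SE; edgeR adjusted p = 0.421), with 103, 120, 130 and 132 CPM in HVCN1 null hearts and 115, 105, 83.3 and 96.1 CPM in WT hearts.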

How the data were processed

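Per the study's methods, poly-A RNA from each heart was sequenced as 2 × 50 nt reads. STAR and featureCounts, and the builds mm10 and GRCm38, are named in the submitters' processing notes, whereas the paper's text names a human build. Gene identifiers are mouse, and GENCODE M21 on GRCm38 was matched to 99.5% of 39056 genes by identifier. The authors deposited whole-number counts of reads for every gene and library, not normalized. The setting for strand and for reads that match several genes is not given in the sources used here. In this work the counts were analysed with edgeR 4.0.16 in R 4.3.3 (TMM scaling, filterByExpr, quasi-likelihood test, Benjamini-Hochberg adjustment over all 14796 tested genes). Limma 3.58.1 and DESeq2 1.42.0 served as alternatives. Log2 CPM used a prior count of 2. Single CPM values and isoform ratios were compared by two-sided exact permutation over 70 assignments. Levels between genes were compared per kilobase of the principal transcript. Copies were found with BLAST+ 2.17.0. Scripts used Python 3.11.15, pandas 2.3.3, numpy 2.4.6, scipy 1.17.1 and matplotlib 3.10.9, and the main test was checked on simulated counts.

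Total counts were 25851255 to 38874640 per heart, and the tested subunits had a median standard error of 0.154 on the log2 scale. The members and gene lists were chosen with earlier results of these data known. Subunits named one by one were, in each complex, the 2 with the smallest p and the one with the highest level per kilobase of exons in WT hearts, all genes of 8 isoform pairs, and those not kept by the filter; of the other lists, the 2 with the smallest p. Other genes named were chosen after their values were seen. The alternatives were RLE scaling, no scaling, TMM factors without the subunits, mitochondrial-genome genes left out, 2 other filters, 4 other tests, an atrial covariate, a prior count of 0.5, other lengths, and each heart left out. The principal transcript length was chosen after seeing the data. Authors' comparisons and RT-PCR values were not used here.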

Additional observations from a re-analysis of the deposited data

Results flagged for a closer look

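In 6 of 116 sets of 4 hearts examined, 1 heart stood farther from the other 3 than Dixon's 95% limit for 4 values, about the number that chance gives, since it marks about 1 in 20 such sets. WT heart 7 was that heart in 5 of them. Sdhd measured 280 CPM there and 358 to 371 CPM in the other WT hearts, and Atp5g3 measured 874 CPM against 1129 to 1153 CPM. The median log2 deviation in WT heart 7 was -0.31 for complex III, -0.32 for the core subunits of complex I and -0.31 for the F1 head of complex V. In WT heart 5, Ndufa4l2 measured 28.0 CPM, above the 17.6 to 19.1 CPM of the other WT hearts.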

How the results depend on the processing

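Called subunits numbered 0 in each of the 19 other fits, which called 0.471% to 3.15% of all tested genes. Leaving out 1 heart moved the median log2 fold change over the subunits between -0.04 and 0.13. The count of named subunits with an exact permutation p under 0.05 ranged from 0 (without WT heart 7) to 1. With 98% identity over 90% of the copy, 15 subunits had copies. Without scaling, Ndufb9 and Cycs turned to 0.019 and 0.017. With the atrial covariate, Cox6a1 turned to -0.037 and Cycs to 0.026. With 1 heart left out, log2 fold changes that turned sign ran from -0.13 to 0.10 (Ndufb9), -0.14 to 0.0011 (Sdhd), -0.16 to 0.11 (Uqcrh), -0.10 to 0.031 (Cycs), -0.050 to 0.27 (Uqcr10), -0.10 to 0.16 (Uqcr11), -0.081 to 0.13 (Atp5g1), -0.054 to 0.10 (Atp5g2), -0.030 to 0.15 (Atp5g3), -0.13 to 0.12 (Cox6a1), -0.017 to 0.21 (Cox4i1), -0.060 to 0.16 (Cox6b1), -0.024 to 0.24 (Cox7a1), -0.047 to 0.16 (Cox7a2) and -0.046 to 0.16 (Ndufa4). Differences in log2 ratio (HVCN1 null minus WT) that turned sign ran from -0.22 to 0.11 (Cox4i1 to Cox4i2), -0.00082 to 0.19 (Cox6a2 to Cox6a1), -0.056 to 0.11 (Cox8b to Cox8a), -0.30 to 0.064 (Cox6b1 to Cox6b2) and -0.19 to 0.038 (Ndufa4 to Ndufa4l2). None of these subunits was called in any fit. No paired analysis was possible because labels number the hearts 1 to 8, with no number in both groups. Few counts limit Cox7b2, Cox8c and Cox6b2. For the other members the spread between hearts sets the width of the intervals.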
